A study of Mus musculus with 12 samples.

Results

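The genes described here are 45 mouse genes that detoxify reactive oxygen, make or use glutathione, or bind metal as metallothioneins, together with Nfe2l2 (the transcription factor Nrf2) and its inhibitor Keap1. They were taken by their symbol in the annotation of the array, and a probe counted as measured when its detection p was below 0.05 on at least 6 of 12 arrays. A probe was annotated to 42 of the 45 genes, and 39 were measured, among 9379 measured genes in all. Prdx5, Prdx6 and Gsr had no annotated probe and were not analysed here, and Sod3, Nqo1 and Gstm7 had probes of which none was kept. Total RNA came from the submandibular gland, a salivary gland of the lower jaw, of C57BL6J mice, and was read on single-colour Illumina bead arrays. One group of 6 arrays came from mice of 8 weeks and the other group of 6 from mice of 50 weeks. No treatment or altered gene is named for either group, and the labels do not state the sex of the mice. The labels number the samples within each age without saying that they are different animals, and the p-values measure only the spread between samples, part of which may be technical.

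Superoxide dismutases turn superoxide into hydrogen peroxide, which catalase, glutathione peroxidases and peroxiredoxins then remove, and thioredoxin and glutathione supply the electrons. Glutathione transferases attach glutathione to reactive compounds, and metallothioneins hold zinc and copper. Nrf2, which Keap1 marks for destruction in unstressed cells, switches on many of these genes through antioxidant response elements, and the metal-sensing factor MTF1 switches on metallothionein genes through metal response elements. In salivary glands the duct cells are rich in mitochondria, and acinar cells make secretory protein.

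The arrays had a mean intensity of 207 to 324 and 15318 to 18110 detected probes. Markers of the labelled tissue were present, since all 9 acinar markers with a probe and all 6 granular duct cell markers with a probe were measured. The latter had a summed level of 17.32 to 17.50 on the log2 scale. The array 50 weeks 6 stood apart, with a mean correlation of 0.949 with the other arrays of its age, against at least 0.975 for each of the other arrays. It gave the lowest or the highest value of its age for 30 of the 39 genes. Differences that it moved by over 1.5 times, or whose sign it turned, are given with and without it.

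Of the 39 measured genes, 7 differed between the ages. At 50 weeks Sod1, Sod2, Gpx7, Glrx and Mgst3 were lower, by 1.16-fold to 1.41-fold, and Gstp1 and Gstt1 were higher, by 1.27-fold and 1.5-fold. This was 17.9% of the measured genes, beside 12.5% of all 9379 genes, by limma's moderated test, with p-values adjusted over all measured genes (Benjamini-Hochberg) and 0.05 as the limit. The share that was higher was 5.13%, beside 6.35% of all genes, and the share that was lower was 12.8%, beside 6.13%. The arrays of the ages did not overlap for 4 genes (Sod1, Sod2, Gstp1 and Gstt1), or 10.3% of the genes, beside 6.45% of all genes.

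Most of the other differences were small and below 0. The log2 difference, 50 weeks minus 8 weeks, was below 0 for 32 of 39 genes (82.1%), beside 53.5% of all genes. Its median was -0.14 over the 39 genes and -0.02 over all genes, and it ran from -0.84 for Gpx2 to 0.58 for Gstt1. At an unadjusted p below 0.05 there were 12 genes (30.8%, beside 27.2% of all genes), of which 10 were lower (25.6%, beside 14.4%). The signs depend on how the arrays are scaled. Scaling each array to the same median moved the median of all genes up by 0.12, and 22 of 39 genes were then below 0, beside 31.5% of all genes. Relative to the median of all genes, the median of the 39 genes was -0.12 in the reported fit and -0.13 under that scaling. Without 50 weeks array 6, 25% of all genes passed (13.7% lower and 11.3% higher), and 8 of the 39 genes passed (6 lower and 2 higher). These were the same 7 and Gstm2, at -0.36 ± 0.12 (SE; limma adjusted p = 0.0409). In that fit the share of the 39 genes that passed was smaller than that of all genes, where the reported fit had a larger one.

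**Figure D1:**
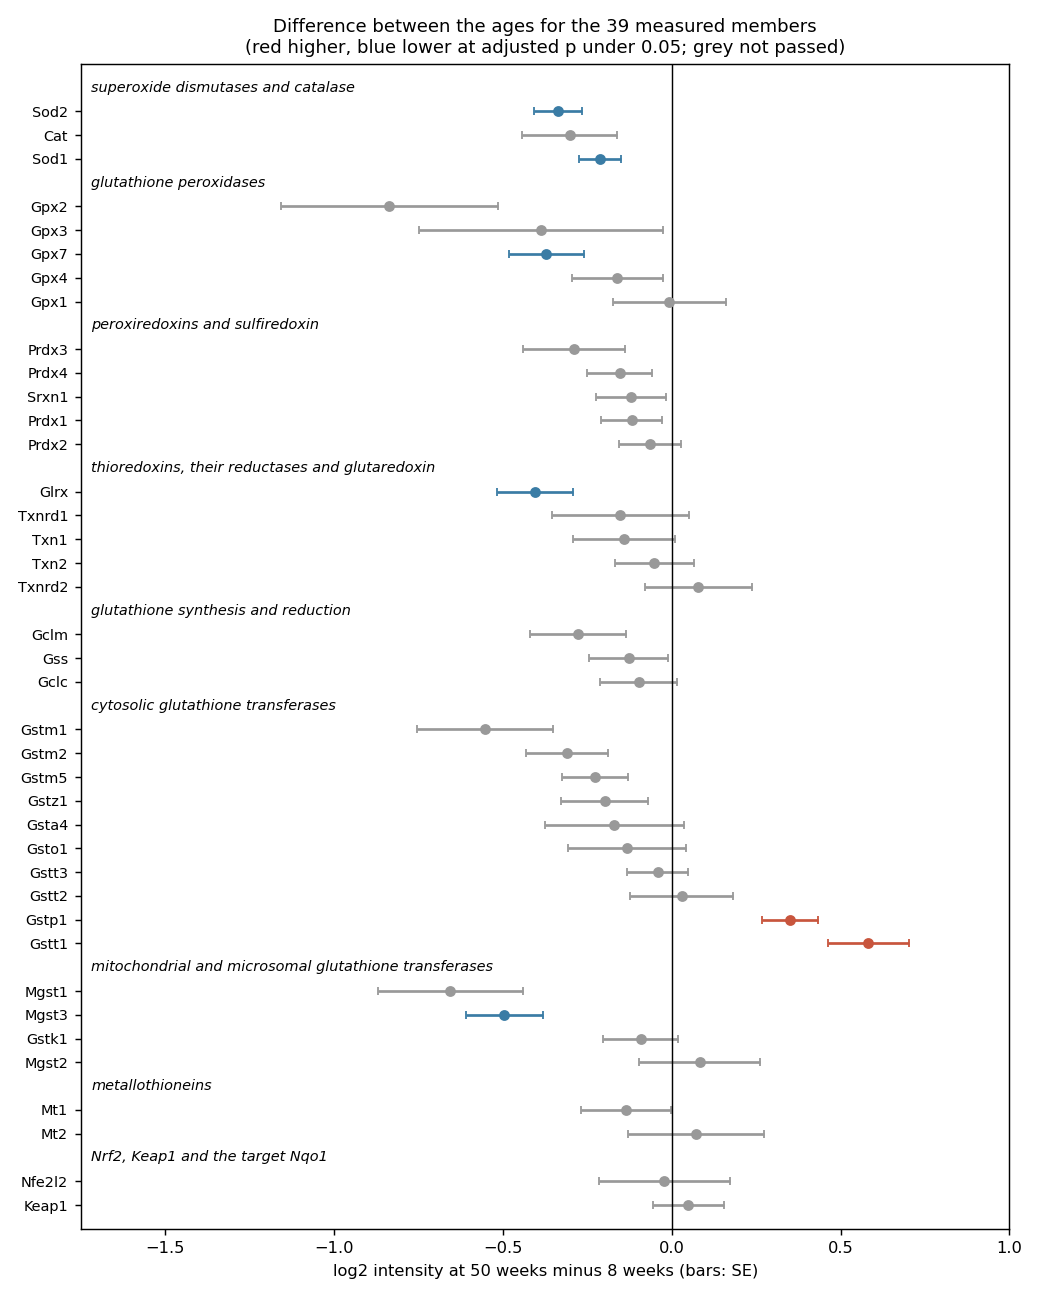
Difference in log2 intensity, 50 weeks minus 8 weeks, for the 39 measured genes, ordered by role, with the standard error of the limma fit as bars (6 arrays per age). Blue points are the 5 genes that were lower, red points the 2 that were higher and grey points those that did not pass, and 32 of 39 points lie below 0.

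The promoters of 6 of these genes are shown: the 4 genes whose arrays did not overlap between the ages, and the 2 metallothionein genes. Whether these sequences have a part in the differences was not tested. Each is the window of 250 bases before to 50 bases after the gene's start from RefSeq on GRCm38.p6, written 5′ to 3′ on the strand of the gene. Capitals in the dismutase and transferase genes mark the core of the antioxidant response element, searched as TGACNNNGC on both strands, and in the metallothionein genes the core of the metal response element, searched as TGCACNC or TGCGCNC on both strands. The windows lie at chr16:90220512-90220811 (plus strand, Sod1), chr17:13007589-13007888 (plus, Sod2), chr19:4037863-4038162 (minus, Gstp1), chr10:75797682-75797981 (minus, Gstt1), chr8:94178839-94179138 (plus, Mt1) and chr8:94172368-94172667 (plus, Mt2).
Sod1: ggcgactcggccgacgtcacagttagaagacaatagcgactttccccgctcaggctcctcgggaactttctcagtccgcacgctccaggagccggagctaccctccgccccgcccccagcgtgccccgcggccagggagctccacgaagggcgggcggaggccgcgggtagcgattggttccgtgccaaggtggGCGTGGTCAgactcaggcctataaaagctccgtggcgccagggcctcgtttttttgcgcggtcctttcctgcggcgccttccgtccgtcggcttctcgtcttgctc
Sod2: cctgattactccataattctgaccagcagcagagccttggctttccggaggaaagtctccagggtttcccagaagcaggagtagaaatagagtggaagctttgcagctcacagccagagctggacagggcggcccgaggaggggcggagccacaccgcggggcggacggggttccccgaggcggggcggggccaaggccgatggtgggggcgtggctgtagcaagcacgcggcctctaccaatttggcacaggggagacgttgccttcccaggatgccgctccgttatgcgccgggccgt
Gstp1: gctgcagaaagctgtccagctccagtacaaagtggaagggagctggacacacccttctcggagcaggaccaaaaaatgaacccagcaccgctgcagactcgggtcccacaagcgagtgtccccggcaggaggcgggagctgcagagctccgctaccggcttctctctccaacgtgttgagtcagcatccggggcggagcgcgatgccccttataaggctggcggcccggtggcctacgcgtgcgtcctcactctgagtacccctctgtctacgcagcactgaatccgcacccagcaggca
Gstt1: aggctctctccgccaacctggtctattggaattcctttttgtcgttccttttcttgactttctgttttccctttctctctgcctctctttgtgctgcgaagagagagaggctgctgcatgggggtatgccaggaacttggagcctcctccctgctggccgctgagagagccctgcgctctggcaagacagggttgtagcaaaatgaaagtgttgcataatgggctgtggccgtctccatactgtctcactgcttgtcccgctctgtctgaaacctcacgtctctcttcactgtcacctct
Mt1: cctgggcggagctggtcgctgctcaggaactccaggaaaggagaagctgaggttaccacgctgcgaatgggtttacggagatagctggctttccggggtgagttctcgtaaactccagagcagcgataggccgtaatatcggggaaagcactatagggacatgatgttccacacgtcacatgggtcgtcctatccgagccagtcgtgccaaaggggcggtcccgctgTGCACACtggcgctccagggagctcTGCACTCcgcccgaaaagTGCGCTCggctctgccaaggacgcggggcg
Mt2: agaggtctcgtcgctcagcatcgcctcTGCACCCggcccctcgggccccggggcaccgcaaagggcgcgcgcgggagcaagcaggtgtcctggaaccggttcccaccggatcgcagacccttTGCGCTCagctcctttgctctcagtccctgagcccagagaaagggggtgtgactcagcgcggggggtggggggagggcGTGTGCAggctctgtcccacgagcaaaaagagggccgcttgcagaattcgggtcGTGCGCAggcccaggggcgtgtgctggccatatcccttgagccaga

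The Sod1 window held 1 match to the antioxidant core, on the reverse strand, and the windows of Sod2, Gstp1 and Gstt1 held no match to this exact pattern. The windows of Gstp1 and Gstt1 held tgagtcagc and tgagagagc, which have g in place of the C after TGA. Such variants were not searched or counted. The Mt1 window held 3 metal response cores, all forward and near its 3′ end, and the Mt2 window held 4, of which 2 were forward and 2 reverse. Each window is marked for 1 of the cores only. The Mt2 window also held 1 antioxidant core and the Gstt1 window 1 metal core, both left in lower case. Windows were at hand for 39 of the 45 genes, 50 windows in all. The antioxidant core was found in 10 of them (20%), beside 12.4% of 32851 windows of all genes, and the metal core in 14 (28%), beside 25.7%. A match is a description of the letters and not a bound site.

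Both superoxide dismutases were lower at 50 weeks. Sod1, the cytosolic copper and zinc enzyme, ran from 10.92 to 11.05 (median 10.97) on the log2 scale at 8 weeks and from 10.68 to 10.85 (median 10.76) at 50 weeks. All 6 old arrays lay below all young arrays, and the difference was -0.21 ± 0.06 (SE; limma adjusted p = 0.0423). Sod2, the manganese enzyme of the mitochondrial matrix, ran from 11.49 to 11.77 (median 11.68) at 8 weeks and from 11.25 to 11.44 (median 11.32) at 50 weeks. Again the groups did not overlap, and the difference was -0.34 ± 0.07 (limma adjusted p = 0.00784), a 1.26-fold lower level.

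The fall of Sod2 exceeded that of Sod1 by 0.13 on the log2 scale. A 2-sided exact permutation test over the 12 arrays gave p = 0.0216, or 0.0271 after adjustment over 5 such contrasts, which were chosen after the values were seen. The call of Sod1 is close to the threshold: it was kept without 50 weeks array 6 and lost when any other single array was left out, with an adjusted p of up to 0.0965. A second kept Sod1 probe, detected on 4 arrays of each age, gave -0.14 (limma adjusted p over all kept probes = 0.463). By the same adjustment the probe used gave 0.0580. With the mean of both probes Sod1 did not pass (-0.17, limma adjusted p = 0.108). The call of Sod2 was kept in each fit but the one with arrays scaled to the same median (limma adjusted p = 0.486).

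Cat, the peroxisomal catalase, ran from 9.67 to 10.30 (median 9.84) at 8 weeks and from 9.11 to 9.82 (median 9.72) at 50 weeks. The groups overlapped and the difference of -0.30 ± 0.14 did not pass (limma adjusted p = 0.185). The second kept probe of Cat gave -0.64 (limma adjusted p over all kept probes = 0.0227), and the mean of both probes -0.47 (limma adjusted p = 0.00657). Whether Cat passed therefore depended on the probe. Sod3, the secreted dismutase, passed detection on 2 arrays of 8 weeks and 1 of 50 weeks.

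Of the 5 glutathione peroxidases, Gpx7 was lower and the other 4 did not pass. Gpx7, a peroxidase of the endoplasmic reticulum, ran from 5.08 to 5.51 (median 5.15) at 8 weeks and from 4.64 to 5.23 (median 4.78) at 50 weeks. It lay below all young arrays on 5 of 6 old arrays, and the difference was -0.37 ± 0.11 (limma adjusted p = 0.0414). The signal is near background: the probe passed detection on all 6 arrays of 8 weeks but on 3 of those of 50 weeks. Without background correction the difference was -0.12 and did not pass (limma adjusted p = 0.105), and on the authors' values it was -0.15 (limma adjusted p = 0.128). Its call was kept without 8 weeks array 2, 50 weeks array 5 or 50 weeks array 6 and lost when any of the other 9 arrays was left out, with an adjusted p of up to 0.0892.

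Gpx1, the main cytosolic peroxidase, ran from 11.84 to 12.20 (median 11.93) at 8 weeks and from 11.09 to 12.21 (median 12.11) at 50 weeks. The lowest value was that of 50 weeks array 6, the other old arrays stood at 12.06 or above, and the difference was -0.01 ± 0.17 (limma adjusted p = 0.987). Without that array it was 0.17, and the sign had turned. Gpx4, which reduces lipid peroxides in membranes, differed by -0.16 and was also lowest on 50 weeks array 6, at 9.83. Without that array the Gpx4 difference was -0.05.

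Gpx2, the peroxidase known from gut epithelium, had the largest negative difference of the 39 genes, -0.84 ± 0.32, and did not pass (limma adjusted p = 0.105). At 8 weeks it ran from 7.19 to 9.30 (median 8.04) and at 50 weeks from 6.94 to 7.53 (median 7.29). The young arrays were spread widely: arrays 2, 4 and 5 stood at 8.73, 8.63 and 9.30, above every old array, and arrays 1, 3 and 6 at 7.29, 7.46 and 7.19, within the range of the old arrays. Gpx3, the secreted plasma peroxidase, ran from 6.58 to 9.32 (median 7.27) at 8 weeks and from 6.85 to 7.58 (median 7.17) at 50 weeks (limma adjusted p = 0.537). Its highest value lay on 8 weeks array 2, where the summed level of 3 measured adipocyte markers was 12.44, against at most 10.72 on the other arrays. Fabp4, Lep, Plin1 and Retn, of the same marker list, had no kept probe, and the part of fat tissue in the Gpx3 value was not tested. In such bulk RNA, fewer cells of a type and less RNA per cell cannot be told apart.

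None of the 5 measured peroxiredoxin genes passed, Srxn1 counted, and none had an unadjusted p below 0.05 in limma. All 5 differences were below 0, from -0.29 for Prdx3, the mitochondrial peroxiredoxin, to -0.06 for Prdx2, a cytosolic one. Without 50 weeks array 6, 4 of the 5 were below 0, with Prdx2 at 0.0015 and Prdx3 at -0.13. Prdx3 ran from 8.77 to 8.91 (median 8.81) at 8 weeks and from 7.73 to 8.79 (median 8.66) at 50 weeks, with its lowest value on 50 weeks array 6. Prdx1 differed by -0.12, and Prdx4, of the endoplasmic reticulum, by -0.15. Srxn1, sulfiredoxin, which repairs overoxidised peroxiredoxins, differed by -0.12 and was lowest on 50 weeks array 6, at 7.15. Without that array it differed by -0.06. The mean of the 5 genes lay under the whole young range on 6 of 6 old arrays (9.47 to 9.65 at 8 weeks, 9.16 to 9.46 at 50 weeks), a description with no test. When the arrays were scaled to the same median, the median difference of these 5 genes was 0.0063 in place of -0.12.

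Among the thioredoxin genes, Glrx was lower. Glrx, the cytosolic glutaredoxin that frees protein thiols from glutathione, ran from 8.63 to 9.18 (median 8.99) at 8 weeks and from 8.32 to 8.83 (median 8.48) at 50 weeks. It lay below all young arrays on 4 of 6 old arrays, and the difference was -0.40 ± 0.11 (limma adjusted p = 0.0307). Its second kept probe gave -0.42 (limma adjusted p over all kept probes = 0.00415). The call was lost without 8 weeks array 1, 2, 4 or 5 and without 50 weeks array 2, 3, 4 or 5, each by itself, with an adjusted p of up to 0.0688.

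The thioredoxins themselves did not pass: Txn1, of the cytosol, differed by -0.14 and Txn2, of mitochondria, by -0.05. Of their selenium-containing reductases, Txnrd1 differed by -0.15 and Txnrd2 by 0.08. A second kept probe of Txnrd2, of a similar level, gave -0.26 (limma adjusted p over all kept probes = 0.377). Txn2 and Txnrd1 were highest of their age on 50 weeks array 6, at 7.98 and 7.17. Without that array Txn2 differed by -0.15 and Txnrd1 by -0.35, which did not pass either (limma adjusted p = 0.215 and 0.0655), Txn1 by -0.22 and Txnrd2 by 0.03. Over all 6 measured selenoproteins among the genes (Gpx1 to Gpx4, Txnrd1 and Txnrd2), none passed and 1 had an unadjusted p below 0.05 in limma.

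The 3 measured genes of glutathione synthesis did not pass, and none had an unadjusted p below 0.05 in limma. Gclm, the modifier subunit of the first enzyme of the pathway, differed by -0.28 (limma adjusted p = 0.224), its catalytic subunit Gclc by -0.10, and Gss, which completes glutathione, by -0.13. Across the 12 arrays, with the mean of each age removed, Gclc and Gclm showed r = 0.13 (permutation p = 0.791 after adjustment over 4 pairs) and a Spearman rho of -0.12 (adjusted permutation p = 0.739). Without the 2 arrays farthest from the median, r was -0.24.

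The glutathione transferases held changes in both directions. Of 10 measured cytosolic enzymes, Gstp1 and Gstt1 were higher and the other 8 did not pass. Gstt1, of the theta class, ran from 6.21 to 6.88 (median 6.83) at 8 weeks and from 7.09 to 7.50 (median 7.29) at 50 weeks. All 6 old arrays lay above all young arrays, and the difference was 0.58 ± 0.12 (limma adjusted p = 0.00711), a 1.5-fold higher level. It passed in all 21 alternative fits, and with arrays scaled to the same median it was the only 1 of the 7 to pass. The size depended on the background step, with 0.34 without background correction and 0.36 on the authors' values. Gstp1, of the pi class, ran from 8.01 to 8.39 (median 8.15) at 8 weeks and from 8.42 to 8.62 (median 8.51) at 50 weeks. Again the groups did not overlap, and the difference was 0.35 ± 0.08 (limma adjusted p = 0.0148).

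The Gstp1 value is uncertain in one respect. A second kept probe of Gstp1 gave 0.11 (limma adjusted p over all kept probes = 0.623), and with the mean of its probes the gene did not pass (0.23; limma adjusted p = 0.0955). Nearly identical copies of Gstp1 lie beside it on chromosome 19, and probes may not tell them apart.

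**Figure D2:**
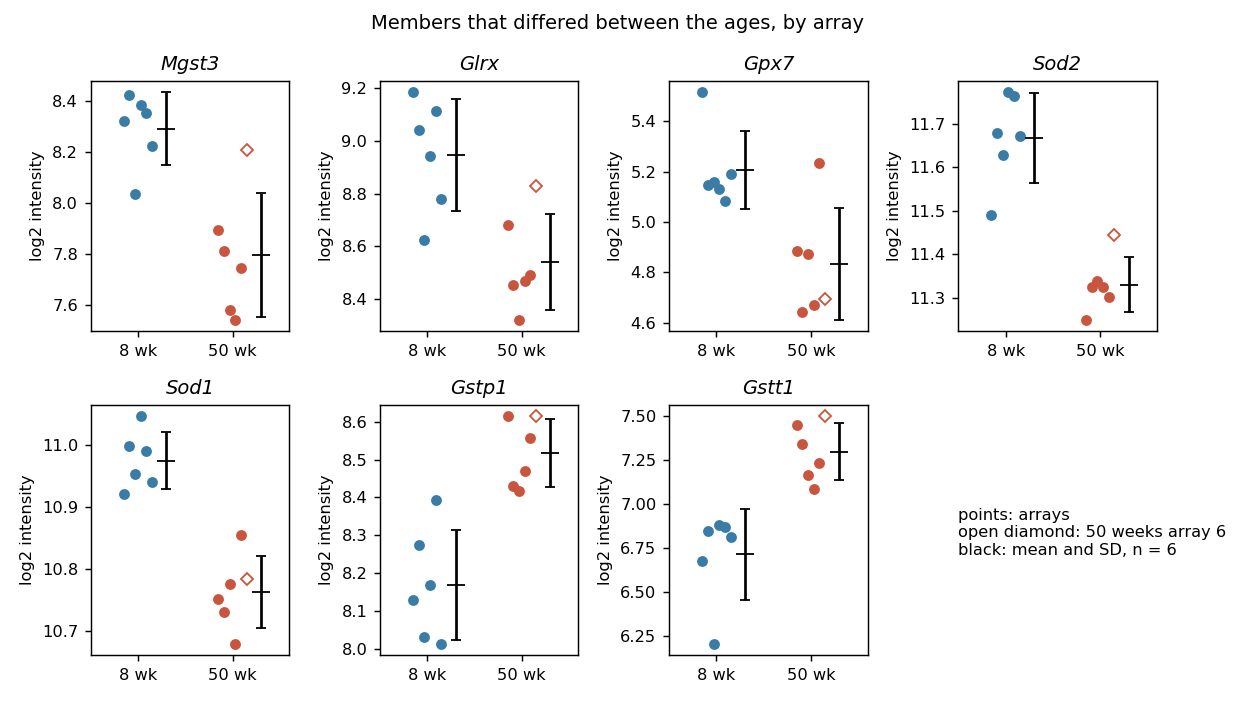
Log2 intensity by array of the 7 genes that differed, with the mean and SD of 6 arrays per age in black and 50 weeks array 6 as an open diamond. Sod1, Sod2, Gstp1 and Gstt1 do not overlap between the ages, and in Gpx7, Glrx and Mgst3 at least 1 old array reaches into the range of the young ones.

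Gstt1 changed more than its theta-class neighbours. Gstt2 and Gstt3, theta-class genes of the same cluster on chromosome 10, differed by 0.03 (limma adjusted p = 0.928) and -0.04 (limma adjusted p = 0.821). Gstt3 ran from 9.63 to 9.87 at 8 weeks and from 9.47 to 9.93 at 50 weeks, and differed by -0.09 without 50 weeks array 6. The change of Gstt1 exceeded that of Gstt3 by 0.62 (2-sided exact permutation p = 0.00216, the smallest that 924 arrangements allow, and 0.00541 after adjustment over the 5 contrasts). It exceeded that of Gstt2 by 0.55 (exact permutation p = 0.00649, adjusted 0.0108). Both contrasts were chosen after the values were seen. The adjustment does not correct for that choice, so these p-values only describe.

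The mu-class genes, which form a cluster on chromosome 3, had differences of the other sign. Gstm1 ran from 8.27 to 9.65 (median 8.95) at 8 weeks and from 8.26 to 8.68 (median 8.37) at 50 weeks. As with Gpx2, young arrays 2, 4 and 5 were the highest, at 9.28, 9.30 and 9.65, above every old array, and the difference of -0.55 did not pass (limma adjusted p = 0.0873). Gstm2 differed by -0.31 (limma adjusted p = 0.108) and was highest on the same 3 young arrays, at 10.83, 10.81 and 10.94. Gstm5 differed by -0.23. The change of Gstp1 exceeded that of Gstm1 by 0.90 (exact permutation p = 0.00216, adjusted 0.00541). This contrast too was chosen after the values were seen, which the adjustment does not correct for. The second kept probe of Gstp1, with a difference of 0.11, was not used in it.

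Gstm1 and Gstm2 varied together within each age. With the mean of each age removed, r was 0.95 over 12 arrays (permutation p = 0.00028 after adjustment over 4 pairs) and rho was 0.92 (adjusted 0.00256). Without the 2 arrays farthest from the median r was 0.94, and it was 0.98 within the 8-week and 0.91 within the 50-week arrays. With the mean of each gene's kept probes r was 0.72 (adjusted permutation p = 0.0230). A second kept Gstm1 probe, detected on 3 arrays of each age, differed by -0.02 between the ages. The coding sequences of Gstm1 and Gstm2 are alike, so shared signal between their probes may enter the correlation, which was not tested.

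The remaining cytosolic transferases did not pass. Gsta4, which clears lipid aldehydes, differed by -0.17, Gsto1, of the omega class, by -0.13, and Gstz1, which also acts in tyrosine breakdown, by -0.20. Gsto1 was lowest of its age on 50 weeks array 6, at 10.02, and without that array it differed by -0.0060. Gsta4 then differed by -0.28.

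Of the 4 transferases of membranes and mitochondria, Mgst3 was lower. Mgst3, a microsomal enzyme with transferase and peroxidase activity, ran from 8.04 to 8.43 (median 8.34) at 8 weeks and from 7.54 to 8.21 (median 7.78) at 50 weeks. It lay below all young arrays on 5 of 6 old arrays, the exception being 50 weeks array 6, and the difference was -0.50 ± 0.11 (limma adjusted p = 0.0121). Its second kept probe gave -0.44 (limma adjusted p over all kept probes = 0.00582).

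Mgst1, a microsomal enzyme of the same kind, ran from 8.01 to 9.65 (median 8.65) at 8 weeks and from 7.90 to 8.39 (median 8.17) at 50 weeks. Its highest values were 9.65 on 8 weeks array 2, where the adipocyte sum was 12.44, and 9.26 on 8 weeks array 5, where it was 9.54. The difference of -0.66 ± 0.21 did not pass (limma adjusted p = 0.0606), while its second kept probe gave -0.67 (limma adjusted p over all kept probes = 0.0301). The changes of Mgst3 and Mgst1 differed by 0.16, which the exact permutation test did not separate (p = 0.511). Mgst2 differed by 0.08 with detection on 2 arrays of 8 weeks and 5 of 50 weeks, and Gstk1, a kappa-class enzyme of mitochondria and peroxisomes, by -0.09. Without 50 weeks array 6 these were 0.04 and -0.18.

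Neither metallothionein passed the test. Mt1 ran from 12.80 to 13.43 (median 12.99) at 8 weeks and from 12.44 to 13.20 (median 12.91) at 50 weeks, a difference of -0.13 ± 0.13 (limma adjusted p = 0.566). Mt2 ran from 5.53 to 6.71 (median 5.93) at 8 weeks and from 5.49 to 6.62 (median 6.06) at 50 weeks, a difference of 0.07 ± 0.20 (limma adjusted p = 0.866). The groups overlapped for both, and both were highest of their age on array 6. Without 50 weeks array 6 the Mt2 difference was -0.04.

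Mt1 and Mt2, neighbours on chromosome 8, varied together between arrays. With the mean of each age removed, r was 0.91 over 12 arrays (permutation p = 0.00058 after adjustment over 4 pairs) and rho was 0.80 (adjusted 0.00796). Without the 2 arrays farthest from the median r was 0.81, and it was 0.91 within the 8-week and 0.93 within the 50-week arrays. With arrays scaled to the same median r was 0.68 and did not pass (adjusted permutation p = 0.0871). Shared signal between their probes was not tested here either. Both genes were lowest on array 1 and highest on array 6 at each age. The permutations within age do not allow for such a shared order of the arrays. Txnrd1 and Srxn1, the fourth pair, showed r = -0.27 (adjusted permutation p = 0.464) and rho = -0.25 (adjusted 0.573). Within the 8-week arrays r was 0.49, within the 50-week arrays -0.99, and 0.41 over the 11 arrays without 50 weeks array 6, so the negative value rests on that array.

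**Figure D3:**
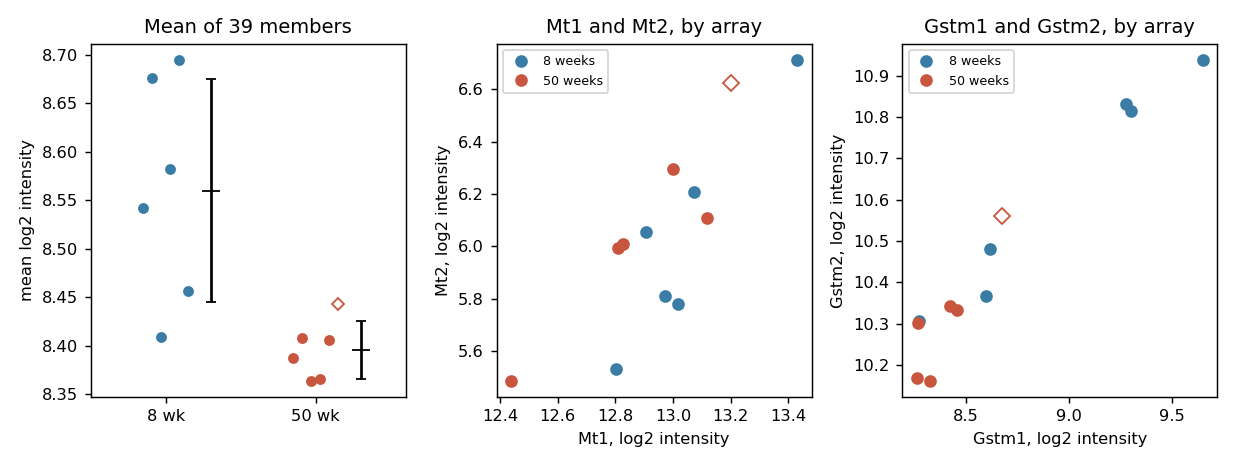
Left, mean log2 intensity of the 39 genes by array, with the mean and SD of 6 arrays per age; middle and right, log2 intensity of Mt2 against Mt1 and of Gstm2 against Gstm1, 1 point per array, with 50 weeks array 6 as an open diamond. The mean ran from 8.41 to 8.69 at 8 weeks and from 8.36 to 8.44 at 50 weeks, and both pairs rise together.

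The mean of the 39 genes was 8.56 ± 0.11 (SD, n = 6) at 8 weeks and 8.40 ± 0.03 at 50 weeks, a difference of -0.16, given with no test. It lay under the whole young range on 5 of 6 old arrays, the exception being 50 weeks array 6. The old arrays stood close together while the young ones ran over a wider range.

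Neither measured regulator of the response passed the test. Nfe2l2 ran from 6.61 to 7.06 (median 6.80) at 8 weeks and from 5.77 to 7.10 (median 7.00) at 50 weeks, a difference of -0.02 ± 0.19 (limma adjusted p = 0.961). The value of 5.77 was that of 50 weeks array 6, and without it the difference was 0.18. Keap1 ran from 8.34 to 8.59 (median 8.48) at 8 weeks and from 8.26 to 8.94 (median 8.48) at 50 weeks, a difference of 0.05 ± 0.10 (limma adjusted p = 0.815). Its highest value lay on 50 weeks array 6, and without it the difference was -0.04. Nqo1, a quinone reductase and classical Nrf2 target, had no kept probe, its brighter probe being detected on 2 young and 3 old arrays.

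Of 87 other genes on 8 pathway lists 12 passed, a share near the 12.5% of all genes. Of 17 other Nrf2 target genes, none passed and 4 had an unadjusted p below 0.05 in limma, all lower; Tkt, of the pentose phosphate pathway, was nearest at -0.42 (limma adjusted p = 0.0501). Hmox1, heme oxygenase, differed by 0.10. Of 9 other regulators, Bach1, a repressor of such targets, was lower (-0.65; limma adjusted p = 0.00616), with detection on 6 arrays of 8 weeks and 2 of 50 weeks. Of 14 other glutathione genes, Gpx8, of the endoplasmic reticulum like Gpx7, was lower (-0.58; limma adjusted p = 0.0484).

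Of 11 other thioredoxin and methionine sulfoxide repair genes, Glrx3 (-0.52; limma adjusted p = 0.00449) and Glrx5 (-0.36; limma adjusted p = 0.0171), glutaredoxins that serve iron and sulfur cluster handling, were lower. Txndc5, a protein disulfide isomerase of the endoplasmic reticulum, was higher (0.49; limma adjusted p = 0.00568). Of 9 other metal handling genes the zinc transporter Slc30a5 was higher (0.27; limma adjusted p = 0.0216), and of 12 peroxisome genes Pex11a was lower (-0.31; limma adjusted p = 0.0249).

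Of 7 measured genes that generate oxidants, Cyba (0.79; limma adjusted p = 0.00181) and Ncf4 (0.96; limma adjusted p = 0.0206), subunits of the NADPH oxidase of phagocytes, were higher, and the median of the list was 0.37. Ncf4 passed detection on 3 arrays of 8 weeks and 6 of 50 weeks, so it was kept only through the old arrays. Cybb, the catalytic subunit, had no kept probe, nor had Duox1, Maoa, Mpo, Ncf1, Nos2, Nos3, Nox1 and Nox4. The median covers the 7 measured genes alone, of which 5 did not pass. Of the 8 glucocorticoid receptor targets, listed because glucocorticoids also induce metallothioneins, Per1 (-0.69; limma adjusted p = 0.000514), Tsc22d3 (-0.83; limma adjusted p = 0.000664) and Klf9 (-0.34; limma adjusted p = 0.0159) were lower.

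Markers of other cells also differed between the ages. Of 9 macrophage and dendritic cell markers 8 were higher, with a summed level of 11.26 to 12.68 at 8 weeks and 12.43 to 13.09 at 50 weeks, and Itgax had no kept probe. B and plasma cell markers were higher for 3 of 4 (summed 6.46 to 7.76, then 7.49 to 9.51; Jchain and Ms4a1 not kept), and T and NK cell markers for 3 of 4 (6.76 to 8.16, then 8.02 to 8.88; Cd247, Cd8a and Gzmb not kept). The 4 B and plasma cell markers were detected on 1 or 2 arrays of 8 weeks and 6 of 50 weeks each, as were Cd3g and Cd3d on 2 and 6, so these markers were kept only through the old arrays. Myoepithelial and smooth muscle markers were higher for 8 of 9 (13.51 to 13.83, then 14.03 to 14.22; Cnn1 not kept). Fibroblast markers were lower for 5 of 8 and higher for 1 (12.69 to 13.18, then 12.35 to 12.82).

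Of the epithelial lists, duct markers were lower for 3 of 8 and higher for 1 (summed 13.11 to 13.52, then 13.09 to 13.19; Ehf and Krt19 not kept). Acinar markers were higher for 1 of 9 (16.75 to 17.31, then 16.72 to 17.30), and Klk1 was the only lower marker of 6 for granular duct cells (17.43 to 17.50, then 17.32 to 17.41). The acinar sum hides a wide spread within each age of Amy1 (SD 2.58 at 8 weeks, 2.63 at 50 weeks) and Smr3a (2.81 and 4.00). Several acinar and granular duct markers lie near the top of the normalised scale, where differences may be compressed. Dcpp2, an acinar marker, stood at 15.23 with an SD of 0 at 50 weeks. Of 11 listed granular duct markers 6 had a probe. Endothelial markers were lower for 1 of 7 (8.91 to 9.24, then 8.90 to 9.08; Kdr not kept). No erythrocyte marker of 3 and no adipocyte marker of 3 passed in limma, with 0 and 1 at an unadjusted p below 0.05. The part of these cells in the differences of Sod1, Sod2, Gstt1 and the other genes was not tested.

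The processing decided some of the 7 calls. On the authors' processed values Sod1, Gpx7 and Glrx did not pass (limma adjusted p = 0.0880, 0.128 and 0.0502), while Sod2, Mgst3, Gstp1 and Gstt1 did.

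**Figure D4:**
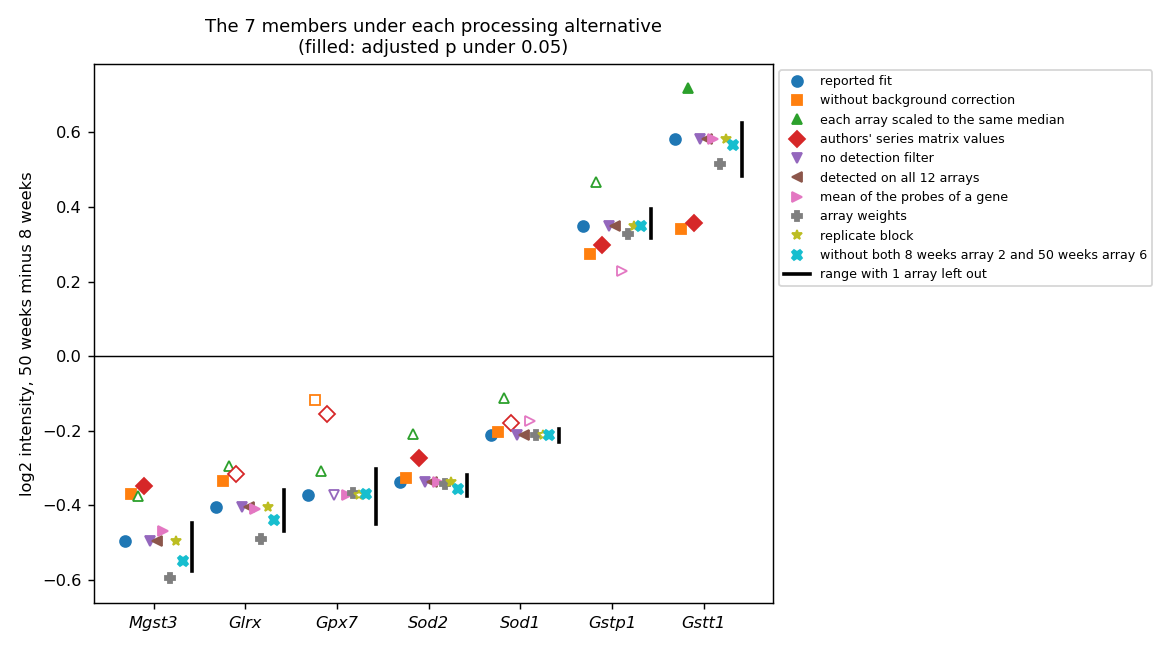
Log2 difference, 50 weeks minus 8 weeks, of the 7 genes in the reported fit and under each processing alternative (filled symbols passed, open symbols did not), with the range over fits without 1 array as a black bar. The direction was the same in all of them, and Gstt1 passed throughout.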

How the data were processed

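The 2 deposited tables were used, with 6 arrays per age. The first holds probe intensity on the linear scale as deposited, with a detection p-value beside each array per the file headers. No scaling between arrays is stated. The other holds the authors' processed intensity values, equal to the former times a factor for each array (0.803 to 1.26), so that each array had a mean of 261. Per the labels' protocols, Trizol RNA was purified on columns with DNase I and labelled as biotin cRNA. The scanner and its software are not stated in the sources used here.

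Intensities were background-corrected from the detection p-values, quantile-normalised and log2-transformed by neqc (limma 3.58.1, R 4.3.3, offset 16; statmod 1.5.0). Of 45281 probes, 16254 had detection p below 0.05 on at least 6 of 12 arrays. Symbols came from the array annotation (34885 probes with 1 symbol, 18 with several, 10378 with none; 34807 matched to the gene table of GRCm38.p6, with 0 symbols changed). The brightest of the 13842 kept probes with 1 symbol stood for its gene, giving 9379 genes. Of the 15 genes described that had more than 1 kept probe, 12 had the same sign on all, and Gss, Txnrd2 and Gstk1 did not. The ages were compared by lmFit and eBayes (2-sided), p-values were adjusted over the 9379 genes by Benjamini-Hochberg, and 0.05 was the limit. A marker list's summed level is the log2 of its members' summed normalised intensity. Paired genes were tested with 100000 permutations within age. The number of arrays limits the precision.

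The genes, lists and naming rule were chosen with earlier results of these data known. Every gene of the set is accounted for; those that passed, and Sod1, Cat, Gpx1, Mt1, Mt2, Nfe2l2, Keap1 and Nqo1, are given in full, and of other lists up to 4 with the smallest adjusted p. Genes given beyond that rule (Hmox1, Amy1, Smr3a, and the ranges or per-array values of Gpx2, Gpx3, Prdx3, Gstt3, Gstm1, Gstm2 and Mgst1) were chosen after their values were seen. Alternatives were background correction, scaling, the authors' values, the detection filter, the probe rule, array weights, replicate number as a block and leaving out arrays.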

Additional observations from a re-analysis of the deposited data

Results flagged for a closer look

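In 80 sets of 6 values (the 39 genes and their mean, at each age), 10 had a lowest or highest array far from the others by Dixon's criterion; chance flags about 1 in 20 such sets. Of the 10, 8 lay on 50 weeks array 6. That array was far below the other old arrays for Gpx1 (11.09), Gpx4 (9.83), Prdx3 (7.73), Srxn1 (7.15), Gsto1 (10.02) and Nfe2l2 (5.77), and far above them for Txn2 (7.98) and Txnrd1 (7.17), all on the log2 scale. The other 2 were at 8 weeks: array 1 was far above the other young arrays for Gpx7, at 5.51, and array 3 far below them for Gstt1, at 6.21. Without 8 weeks array 1 Gpx7 did not pass, and without 8 weeks array 3 the difference of Gstt1 was 0.48 (limma adjusted p = 0.00673). The cause of these values was not tested.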

How the results depend on the processing

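Gstt1 passed in all 21 alternatives, Sod2 and Mgst3 in 20 and Gstp1 in 19. With arrays scaled to the same median 1 of the 39 genes passed (1 higher, 0 lower), 393 of all genes passed, 1 gene had no overlap, 4 of the 87 genes of the pathway lists passed and the mean of the 39 genes differed by -0.048. On the authors' values 4 of the 39 passed (2 lower), beside 889 of all 9379, with 2 without overlap. With the mean of a gene's probes 7 of the 39 passed, 1 of them higher, beside 1174 of all genes. With array weights 10 of the 39 passed (8 lower, 2 higher), beside 2593 of all 9379 genes in either direction and 29 pathway genes. Without both 8 weeks array 2 and 50 weeks array 6, 2508 of all genes and 29 pathway genes passed. Leaving out 1 array gave 4 to 8 genes past the threshold (2 higher in each, 2 to 6 lower), 4 to 6 without overlap, 792 to 2317 of all genes, 10 to 28 pathway genes and a difference of the mean of -0.19 to -0.14. With every kept probe by itself, 7 genes had a probe that passed (Sod2, Cat, Glrx, Gstp1, Gstt1, Mgst1 and Mgst3), a setting added after seeing the data. Beside these 7, and beside the counts without overlap in these alternatives, no count over all genes is given.

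Differences near 0 turned sign. Nfe2l2 was 0.0052 without background correction, 0.13 with median scaling, 0.042 on the authors' values, 0.17 with array weights, 0.18 without both arrays and -0.082 to 0.18 with 1 array left out. Gpx1 was 0.13, 0.053, 0.17 and 0.14 under the last 4 in that order, and -0.056 to 0.17 with 1 left out. Keap1 was -0.00027 with array weights, -0.029 without both arrays and -0.035 to 0.10 with 1 left out, and Mt2 was -0.085 without both and -0.037 to 0.21. The correlation of Txnrd1 and Srxn1 was 0.50 without both arrays and -0.63 to 0.41 with 1 left out, and that of Gclc and Gclm -0.47 to 0.35. The cause was not tested.

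Whether replicate numbers pair the arrays is not stated, and these values do not settle it. With the mean of each age removed, same-numbered arrays correlated at -0.01 to 0.30, and 1 of 6 matched its own number best. Numbers 1, 2 and 3 gave 0.25, 0.25 and 0.30, close to their best matches of 0.29, 0.26 and 0.31. With the replicate number as a block 6 of the genes passed (Sod1 and Gpx7 lost, Mgst1 gained), 911 of all genes and 10 pathway genes. Gpx7 and other genes near background are limited by their signal.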
